A study of Mus musculus with 8 samples.

Results

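The genes described here encode 8 amino acid transporters of the plasma membrane, namely Slc7a5, Slc3a2, Slc1a5, Slc38a1, Slc38a2, Slc7a1, Slc7a6 and Slc7a11. They were chosen by gene symbol from 52459 genes listed in the deposited expression table. All 8 had a mean of at least 10 normalized counts over the 8 libraries and were tested with 15419 genes in all. RNA was sequenced from CD4+CD25hi regulatory T (Treg) cells of spleen and lymph nodes, sorted from healthy heterozygous female C57BL/6 mice. The study asked how loss of store-operated Ca2+ entry, which the ER Ca2+ sensors STIM1 and STIM2 activate, changes gene expression in these cells.

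The 4 groups held 2 libraries each. WT cells were YFPcre-negative cells of the heterozygous mice, which by the study's methods carried floxed Stim1, floxed Stim2 and Foxp3-YFPcre. The floxed alleles are therefore not particular to the DKO cells, which came from the same kind of mice. DKO cells were sorted as YFPcre-positive cells. Their labels give floxed Stim1 (written fl/f), floxed Stim2 (written fl/fll) and Foxp3-YFPcre, in which the Foxp3 promoter drives Cre. Both kinds of cells were analysed unstimulated or after 16 h on plate-bound antibodies to CD3 and CD28 at 1 µg/ml. Genotype label and the YFPcre gate therefore cannot be told apart. By the study's methods each sample was a pool of several heterozygous females, and p-values measure the spread between these libraries. Unstimulated libraries were run on lane 4 and stimulated ones on lane 1, so that stimulation and lane cannot be told apart.

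Libraries held 11851853 to 16306540 reads on genes, and 1 read was worth 0.759 to 1.48 normalized counts. Stim1 counted 1139 and 1377 in unstimulated WT libraries against 1538 and 1868 in those labelled DKO. After stimulation it counted 645 and 673 against 552 and 642. Stim2 counted 906 and 908 against 904 and 744 in unstimulated cells, and 665 and 782 against 620.2 and 696 in stimulated cells. Neither targeted gene was called different between genotypes in either state (limma, adjusted p 0.236 to 0.827), so counts over the whole gene do not check the label, and the libraries are called by their label here. The Treg markers Foxp3, Il2ra and Ikzf2 were present in every library. The summed level of 7 Treg markers was 40591 and 48769 in the unstimulated libraries labelled DKO and 69853 to 115438 in the other 6 libraries. In unstimulated cells all 7 were lower by sign, but unequally. Ctla4 counted 37404 and 35119 in WT libraries against 6338 and 17333, Cd4 10760 and 8918 against 10363 and 7005, and Cd3e 3424 and 3294 against 3042 and 3156. The paper reports lower Foxp3, Ctla4 and Ikzf2 without STIM1 and STIM2, so the sum does not measure the share of Treg cells alone. The summed level of 15 macrophage and myeloid markers was 11884 in DKO unstimulated replicate 1 and 1894 in replicate 2, against 175 to 488 in the other 6 libraries. The 13 B cell markers summed to 8276 in DKO unstimulated replicate 1 and to 1006 to 4051 elsewhere. Among stimulated libraries replicate 1 held the higher sum, with 2929 against 1268 in WT libraries and 4051 against 1006 in those labelled DKO. In bulk libraries, a lower share of one cell type and less RNA per cell cannot be told apart.

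Activated T cells need amino acids for protein synthesis and growth, and they take them up through a small set of membrane carriers. SLC7A5 (LAT1) and SLC7A6 (y+LAT2) are light chains that carry large neutral amino acids, or exchange cationic for neutral ones, and SLC7A11 (xCT) is the light chain that imports cystine in exchange for glutamate. Each of them works as a pair with the heavy chain SLC3A2 (CD98hc, 4F2hc), which brings it to the cell surface. SLC1A5 (ASCT2) exchanges small neutral amino acids including glutamine, SLC38A1 (SNAT1) and SLC38A2 (SNAT2) take up glutamine and other neutral amino acids with sodium, and SLC7A1 (CAT1) carries arginine and lysine. Leucine and arginine inside the cell are sensed upstream of the growth kinase mTORC1, and amino acid shortage acts on several of these genes through the transcription factor ATF4.

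Per kilobase of transcript, a scale on which genes can be compared, Slc38a2 was the most abundant of the 8 in every group. Its mean level was 2394 normalized counts per kb in unstimulated WT libraries and 674 in stimulated WT libraries. In unstimulated WT cells the order continued with Slc3a2 at 1055, Slc7a1 at 645, Slc1a5 at 441, Slc38a1 at 417, Slc7a6 at 151 and Slc7a5 at 145. Slc7a11 came last at 0.991. No neighbours in this order overlapped between their libraries, although Slc1a5 and Slc38a1 were close, as were Slc7a6 and Slc7a5. In unstimulated libraries labelled DKO the pairs Slc3a2 and Slc7a1, Slc7a1 and Slc1a5, Slc38a1 and Slc7a5, and Slc7a5 and Slc7a6 did overlap. After stimulation of WT cells Slc3a2 stood at 363, below Slc38a2, Slc1a5 at 608, Slc38a1 at 471 and Slc7a1 at 449.7, with Slc38a1 and Slc7a1 overlapping. In stimulated libraries labelled DKO Slc3a2, at 302, was again below them, and the libraries of Slc7a1 (423), Slc1a5 (404) and Slc38a1 (383) overlapped between neighbours.

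**Figure D1:**
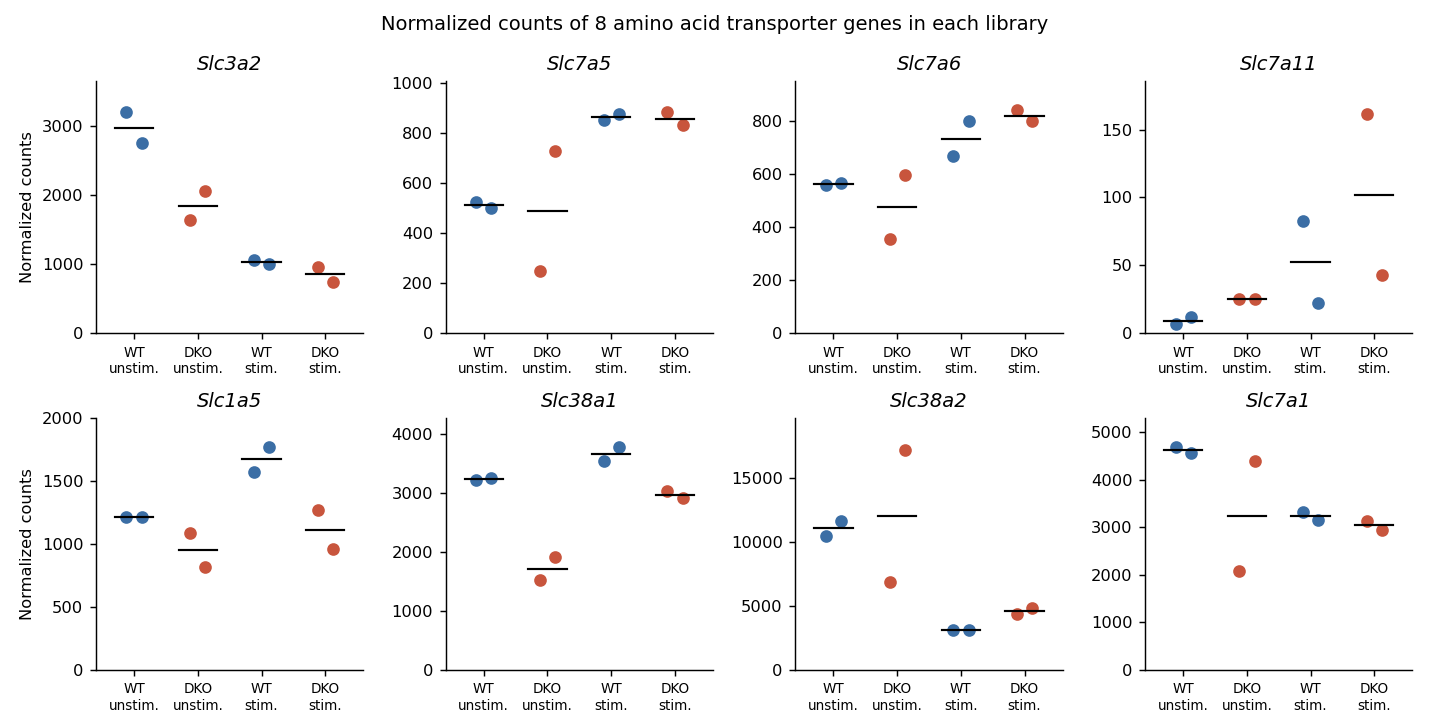
Normalized counts (vertical axes, from 0) of each transporter in the 8 libraries, grouped by genotype label and stimulation, with points for libraries and bars for group means. Slc3a2 and Slc38a2 lie lower in all stimulated libraries, Slc38a1 is lowest in the 2 unstimulated libraries labelled DKO, and those 2 libraries lie far apart for Slc7a5, Slc38a2 and Slc7a1.

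The comparison of libraries labelled DKO with WT libraries in unstimulated cells asked whether transporter expression in resting Treg cells differed with loss of STIM1 and STIM2. The glutamine carrier gene Slc38a1 was lower in the libraries labelled DKO, and it was the only one of the 8 transporters that passed the test. The test was limma on log2(normalized count + 1), and a gene was called when it differed by over 1.5-fold with p, adjusted by Benjamini-Hochberg, below 0.05. By this rule 1 of 8 members was called lower, beside 3.35% of all genes tested, and 0 of 8 were called higher, beside 1.38%. Those shares are 517 genes lower and 213 higher, and they moved with single libraries, to 8 and 0 without WT unstimulated replicate 3, 16 and 7 without WT unstimulated replicate 4, 201 and 52 without WT stimulated replicate 1, 171 and 45 without WT stimulated replicate 2, and 924 and 374 without DKO unstimulated replicate 2. At an unadjusted p under 0.05 and the same fold, 2 members were lower and 0 higher, and edgeR and DESeq2 each called 1 lower and 0 higher. Over all 15419 genes tested those settings called 1705 lower and 1338 higher, 353 and 131, and 817 and 521. The median log2 fold change was -0.33 over the 8 members and -0.01 over all genes tested.

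Slc38a1 counted 3217 and 3247 in unstimulated WT libraries and 1515 and 1914 in unstimulated libraries labelled DKO. The groups did not overlap, and the difference was several times the spread within either group. The log2 fold change was -0.92 ± 0.17 (SE, n = 2 and 2; limma, adjusted p = 0.0209), which is a level 1.90-fold lower. It was -0.76 without DKO unstimulated replicate 1 (adjusted p = 0.0220), the library with the highest myeloid markers, and -1.09 without replicate 2. The call did not hold without WT unstimulated replicate 3 (adjusted p = 0.245), WT unstimulated replicate 4 (0.116), WT stimulated replicate 1 (0.0595) or WT stimulated replicate 2 (0.0598), nor when only the 4 unstimulated libraries were fitted (0.0780), while the fold change stayed at -0.92 to -0.93 in those 5 fits.

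The heavy chain gene Slc3a2 counted 3190.0 and 2745 in unstimulated WT libraries against 1627 and 2057 in those labelled DKO. These values did not overlap either, with a log2 fold change of -0.69 ± 0.20 (SE), but the change missed the threshold (adjusted p = 0.0852). Slc1a5 counted 1211 and 1217 against 1088 and 817, a log2 fold change of -0.36 ± 0.21 (adjusted p = 0.357). Slc7a1, the cationic amino acid carrier, counted 4688 and 4567 against 2087 and 4393, with a log2 fold change of -0.61 ± 0.29 (adjusted p = 0.242). In all, 4 of 8 members had both libraries labelled DKO below both WT libraries, as did 27.1% of all genes tested. Slc7a11 was the 1 member with both above, as were 26.5% of genes.

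Slc7a5, Slc38a2 and Slc7a6 differed more between the 2 unstimulated libraries labelled DKO than between the genotype labels. So did Slc7a1 (2.11-fold between those libraries, 1.53-fold between labels) and Slc1a5 (1.33-fold and 1.29-fold), although both lay below WT without overlap. Slc7a5 counted 523 and 499 in WT libraries and 247 and 725 in libraries labelled DKO. Slc38a2 counted 10500.2 and 11646 in WT libraries and 6903 and 17247 in libraries labelled DKO. In both cases the WT libraries lay between the low DKO unstimulated replicate 1 and the high replicate 2. Slc7a6 showed the same order with a narrower gap, with 561 and 566 in WT libraries and 354 and 598 in those labelled DKO. The log2 fold changes of these 3 genes were -0.27 ± 0.39 for Slc7a5, -0.02 ± 0.33 for Slc38a2 and -0.29 ± 0.26 for Slc7a6 (SE; adjusted p 0.553 to 0.981).

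Which of the 2 libraries labelled DKO was kept decided most of these differences. Without DKO unstimulated replicate 2 the log2 fold changes were -1.04 for Slc7a5, -0.86 for Slc3a2, -1.09 for Slc38a1, -0.68 for Slc38a2 and -1.15 for Slc7a1. Without replicate 1 they were 0.50, -0.52, -0.76, 0.64 and -0.08 in the same order. That of Slc7a6 was -0.67 without replicate 2 and 0.09 without replicate 1. Slc38a1 was the only member lower by over 1.5-fold in both fits. The direction for Slc38a2 also turned under other scalings, from -0.02 to 0.10 with equal library totals and to 0.14 with equal upper quartiles. The part of the myeloid and B cell RNA of replicate 1 in these values was not tested.

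**Figure D2:**
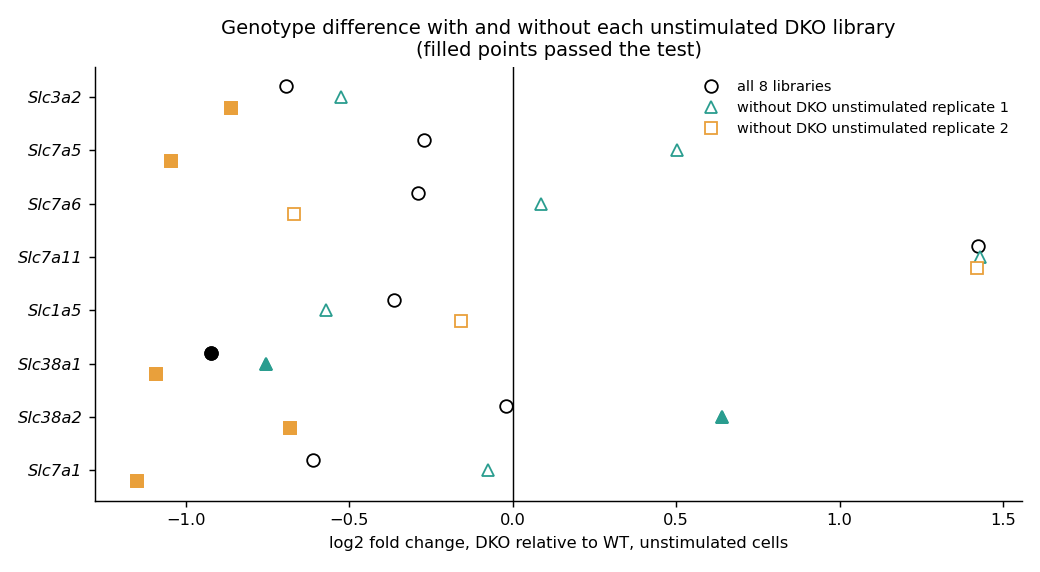
Log2 fold change between genotype labels in unstimulated cells (horizontal axis) for each transporter, from all 8 libraries and from 7 libraries without either unstimulated library labelled DKO. Filled points passed the test. Slc38a1 is below 0 and filled in all 3 fits, whereas Slc38a2 goes from -0.68 to 0.64.

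The same comparison after stimulation asked whether the genotype mattered in activated Treg cells. None of the 8 transporters passed the limma test, with 0 called higher (0.162% of all genes tested) and 0 called lower (0.11%). At an unadjusted p under 0.05 and over 1.5-fold, 1 member was lower and 0 higher, and edgeR and DESeq2 called 0 in both directions. Over all 15419 genes tested those settings called 1072 lower and 864 higher, 0 and 1, and 299 and 251. The member lower at an unadjusted p was Slc1a5. It counted 1574 and 1773 in stimulated WT libraries and 1266 and 959.9 in those labelled DKO. Its groups did not overlap, and its log2 fold change was -0.60 ± 0.21 (SE, n = 2 and 2; limma, adjusted p = 0.241). Slc38a1 counted 3535 and 3769 against 3021 and 2917, a log2 fold change of -0.30 ± 0.17 (adjusted p = 0.505). Slc38a2 counted 3134 and 3099 against 4375 and 4801, and lay higher in both libraries labelled DKO with a log2 fold change of 0.56 ± 0.33 (adjusted p = 0.515). That SE rests on the spread shared by all 4 groups, which includes 6903 and 17247 in the unstimulated libraries labelled DKO. The fold change was 0.49 to 0.62 with 1 library left out and 0.51 to 0.57 in 11 other fits, of which 0 called it.

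For Slc3a2, Slc7a5, Slc7a1 and Slc7a6 the stimulated genotype labels lay closer together than for Slc7a11, which is described with its wide spread further on. Slc3a2 counted 1049.8 and 993 in WT libraries and 958 and 743 in libraries labelled DKO. Slc7a5 counted 853 and 875 against 883 and 829.9, Slc7a1 3313 and 3144 against 3136 and 2941, and Slc7a6 670.3 and 800.3 against 842 and 801. The libraries of Slc7a5 overlapped, whereas those of Slc3a2 and Slc7a1 were lower and those of Slc7a6 higher in the group labelled DKO. For Slc7a5 the 95% interval of the log2 fold change ran from -0.88 to 0.86. Its width rests on the spread shared by all 4 groups, which includes 247 and 725 in the unstimulated libraries labelled DKO. In this model a change of that size in either direction cannot be told from none. By libraries alone, 4 members were lower without overlap, beside 23.1% of genes tested, and 2 were higher, beside 24.3%. The 4 lower ones, Slc3a2, Slc1a5, Slc38a1 and Slc7a1, were also the 4 lower without overlap in unstimulated cells. The share of all genes tested that lay lower without overlap in both states was not counted, so this repeat has nothing to be judged against.

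The interaction of genotype and stimulation compares the DKO to WT difference before and after stimulation. By limma, 0 of 8 members were called higher and 0 lower, beside 0% of all genes tested in both directions. At an unadjusted p under 0.05 and over 1.5-fold, 1 member was higher and 0 lower, and edgeR and DESeq2 called 0 members in both directions. Over all 15419 genes tested those settings called 704 higher and 543 lower, 0 and 0, and 37 and 13. The largest interaction by unadjusted p was that of Slc38a1, at 0.63 ± 0.25 on the log2 scale (SE; limma, adjusted p = 0.569). A genotype difference of Slc38a1 in unstimulated cells alone is therefore not shown. Without DKO unstimulated replicate 2 the interactions of Slc38a2 and Slc7a1 were 1.24 and 1.06, and without replicate 1 they were -0.08 and -0.01.

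Stimulation was compared within each genotype label to see how transporter genes responded to engagement of CD3 and CD28. Slc3a2 and Slc38a2 fell both in WT cells and in cells labelled DKO, and Slc38a1 and Slc7a6 rose in cells labelled DKO. No member was called higher in WT cells, but a difference between the labels in this response was not called for any member by the interaction test. In WT cells 2 of 8 members were called lower, beside 13.1% of all genes tested, and 0 were called higher, beside 10.2%. At an unadjusted p under 0.05 and over 1.5-fold, 1 member was higher in WT cells, and edgeR called 0 and DESeq2 called 1 higher. Over all 15419 genes tested those settings called 2565, 1528 and 1671 higher in WT cells. In cells labelled DKO 2 members were called lower, beside 12% of genes, and 2 higher, beside 13%. The median over the 8 members was 0.28 in WT cells and 0.51 in cells labelled DKO, against 0.01 and -0.03 over all genes tested. The 2 stimulation comparisons share no library.

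The heavy chain gene Slc3a2 went from 3190.0 and 2745 to 1049.8 and 993 in WT libraries, with both stimulated values far below both unstimulated ones. The log2 fold change was -1.53 ± 0.20 (SE, n = 2 and 2; limma, adjusted p = 0.00146), a level 2.90-fold lower. In libraries labelled DKO it went from 1627 and 2057 to 958 and 743, with a log2 fold change of -1.12 ± 0.20 (adjusted p = 0.00441). Both calls held when any 1 library was left out and in every other fit that was run, with log2 fold changes of -1.64 to -1.01 in WT cells and -1.30 to -0.73 in cells labelled DKO.

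Slc38a2 went from 10500.2 and 11646 to 3134 and 3099 in WT libraries, a log2 fold change of -1.83 ± 0.33 (SE; adjusted p = 0.00490) and a level 3.55-fold lower. The 2 stimulated WT libraries were within 1.01-fold of each other. In libraries labelled DKO it went from 6903 and 17247 to 4375 and 4801, a log2 fold change of -1.25 ± 0.33 (adjusted p = 0.0216). The call in WT cells did not hold without WT unstimulated replicate 4 (-1.75, adjusted p = 0.0540). That in cells labelled DKO did not hold without DKO stimulated replicate 1 (-1.18, adjusted p = 0.0843) or replicate 2 (-1.32, adjusted p = 0.0646), nor with the 4 libraries labelled DKO alone (0.0867), and its size was -1.91 without DKO unstimulated replicate 1 and -0.59 without replicate 2.

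Slc38a1, the other SNAT gene, went the other way in cells labelled DKO, from 1515 and 1914 to 3021 and 2917. The log2 fold change was 0.80 ± 0.17 (SE; adjusted p = 0.00948), called whichever library was left out but not when only the 4 libraries labelled DKO were fitted (adjusted p = 0.0741). In WT cells it went from 3217 and 3247 to 3535 and 3769, a log2 fold change of 0.18 ± 0.17 (adjusted p = 0.498). Slc7a6 rose in cells labelled DKO, from 354 and 598 to 842 and 801, by 0.83 ± 0.26 on the log2 scale (adjusted p = 0.0385). This call held only in the fit without DKO unstimulated replicate 2 (1.21) when 1 library was left out. It did not hold without WT unstimulated replicate 3 (adjusted p = 0.0694), WT unstimulated replicate 4 (0.0691), WT stimulated replicate 1 (0.0633), WT stimulated replicate 2 (0.0647), DKO stimulated replicate 1 (0.121) or DKO stimulated replicate 2 (0.0999), and it was 0.46 (0.128) without DKO unstimulated replicate 1. It also missed with the 4 libraries labelled DKO alone (0.123) and when every gene with a value above 0 was tested (0.0675). In WT cells Slc7a6 went from 561 and 566 to 670.3 and 800.3, a log2 fold change of 0.38 ± 0.26 (adjusted p = 0.311).

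Slc7a5, the LAT1 light chain, counted 523 and 499 before and 853 and 875 after stimulation of WT cells. These libraries were well apart, but with the spread shared by all 4 groups the log2 fold change of 0.76 ± 0.39 (SE) did not pass (adjusted p = 0.187). With the 4 WT libraries alone it did (adjusted p = 0.00418), and it did without DKO unstimulated replicate 1 (0.00667) or replicate 2 (0.00804). In libraries labelled DKO it went from 247 and 725 to 883 and 829.9, a log2 fold change of 1.01 ± 0.39 (adjusted p = 0.0830) that ranged from 0.24 to 1.79 with 1 library left out. Slc1a5 went from 1211 and 1217 to 1574 and 1773 in WT libraries (log2 fold change 0.46 ± 0.21, adjusted p = 0.146), and from 1088 and 817 to 1266 and 959.9 in libraries labelled DKO (0.22 ± 0.21, adjusted p = 0.467), where the states overlapped. Slc7a1 went from 4688 and 4567 to 3313 and 3144 (-0.52 ± 0.29, adjusted p = 0.212), and this direction was lost, at 0.00, when library totals were made equal. In libraries labelled DKO it went from 2087 and 4393 to 3136 and 2941, with a log2 fold change of 0.00 ± 0.29 (adjusted p = 0.992) that turned to -0.53 without DKO unstimulated replicate 1 and to 0.54 without replicate 2.

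Slc7a11, the cystine carrier gene, was the least expressed member and had the widest spread. It counted 6.47 and 11.8 in unstimulated WT libraries, from 6 and 8 reads, and 25.2 and 25.4 in unstimulated libraries labelled DKO. After stimulation it counted 82.6 and 22.0 in WT libraries and 161 and 43.1 in libraries labelled DKO. The stimulated values lay above the unstimulated ones of the same label, but differed 3.75-fold within the WT group and 3.74-fold within the group labelled DKO. Under both labels the higher value was that of replicate 1, which also held the higher sum of B cell markers. Whether these go together was not tested. Its log2 fold change on stimulation was 2.16 ± 0.76 in WT cells (SE; adjusted p = 0.0634) and 1.69 ± 0.76 in cells labelled DKO (adjusted p = 0.129). The change in WT cells passed in 4 of 9 other fits, DESeq2 among them (2.53, adjusted p = 0.0165), and was 1.23 without WT stimulated replicate 1. Between genotype labels it was 1.42 ± 0.76 before (adjusted p = 0.303) and 0.95 ± 0.76 after stimulation (adjusted p = 0.641).

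The size of the stimulation differences depended on scaling. Totals of normalized counts were lower in stimulated libraries, and with equal totals the median over all genes tested moved to 0.52 in WT cells and 0.35 in cells labelled DKO. Slc3a2 stayed lower on that scale in both, at -1.01 and -0.73. Slc38a2 stayed lower at -1.31 in WT cells (called) and was -0.86 in cells labelled DKO (adjusted p = 0.0561). Then 5 members were called higher in WT cells and 3 in cells labelled DKO, in place of 0 and 2. Over all 15419 genes tested, 4258 and 3791 were called higher on that scale, in place of 1580 and 1997. The single gene mt-Rnr2 took 13.4 to 22.1% of reads in unstimulated libraries and 9.78 to 13.6% in stimulated ones. Its part in the totals was not tested.

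**Figure D3:**
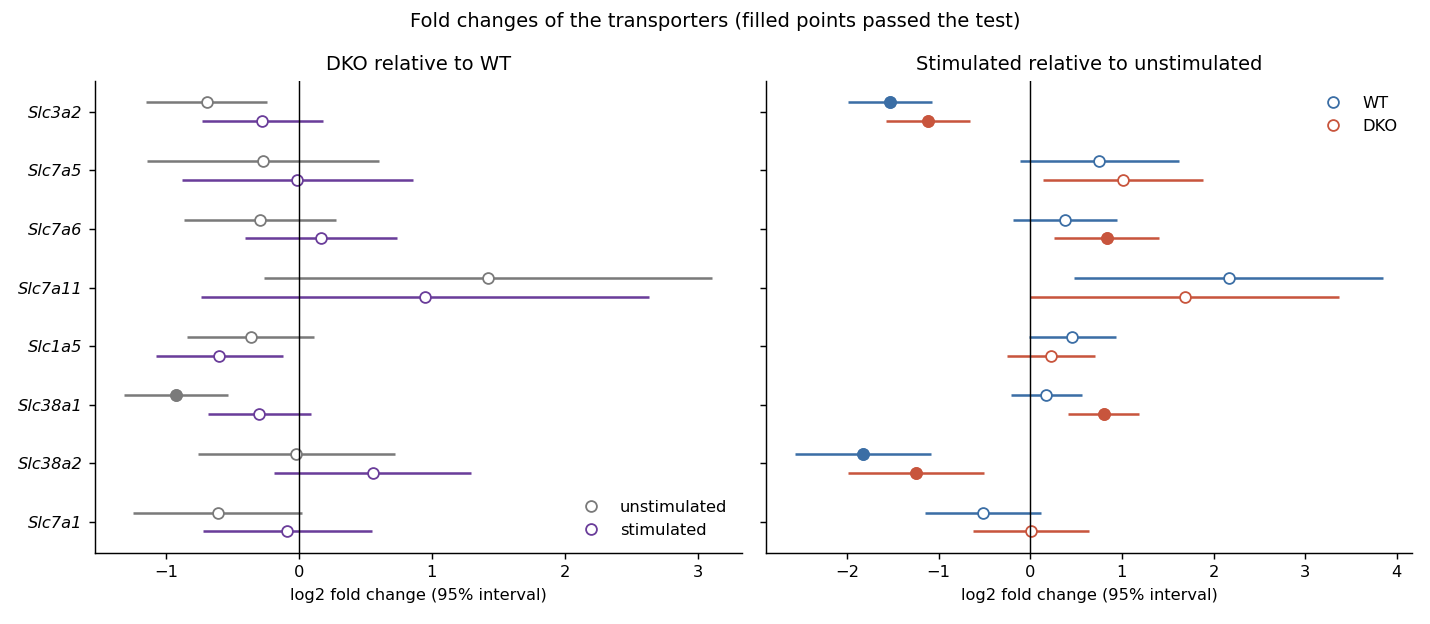
Log2 fold changes with 95% intervals (horizontal axes) of the 8 transporters, for the genotype label in unstimulated and stimulated cells (left) and for stimulation in WT cells and cells labelled DKO (right). Filled points passed the test; Slc3a2 and Slc38a2 are filled and below 0 on the right in both, and Slc38a1 is the one filled point on the left.

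Ratios between members within a library do not depend on how libraries are scaled. Per transcript length, Slc7a5 stood at 0.131 and 0.146 of Slc3a2 in unstimulated WT libraries and at 0.650 and 0.705 in stimulated ones. In libraries labelled DKO the ratio was 0.122 and 0.282 before and 0.738 and 0.894 after stimulation. All 4 stimulated libraries were thus above all 4 unstimulated ones, and the genotype labels overlapped in unstimulated cells. Summed over the light chains Slc7a5, Slc7a6 and Slc7a11, the ratio to Slc3a2 was 0.265 to 0.505 in unstimulated libraries and 1.16 to 1.72 in stimulated ones.

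The ratio of the SNAT genes, Slc38a1 to Slc38a2, was 0.183 and 0.166 in unstimulated WT libraries and 0.131 and 0.0662 in unstimulated libraries labelled DKO. After stimulation it was 0.673 and 0.726 in WT libraries and 0.412 and 0.363 in libraries labelled DKO. It was higher after stimulation in all libraries, and in each state both libraries labelled DKO were below both WT libraries. These ratios are descriptions without a test, since the smallest p that an exact permutation test of 2 against 2 libraries can give is 0.333.

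**Figure D4:**
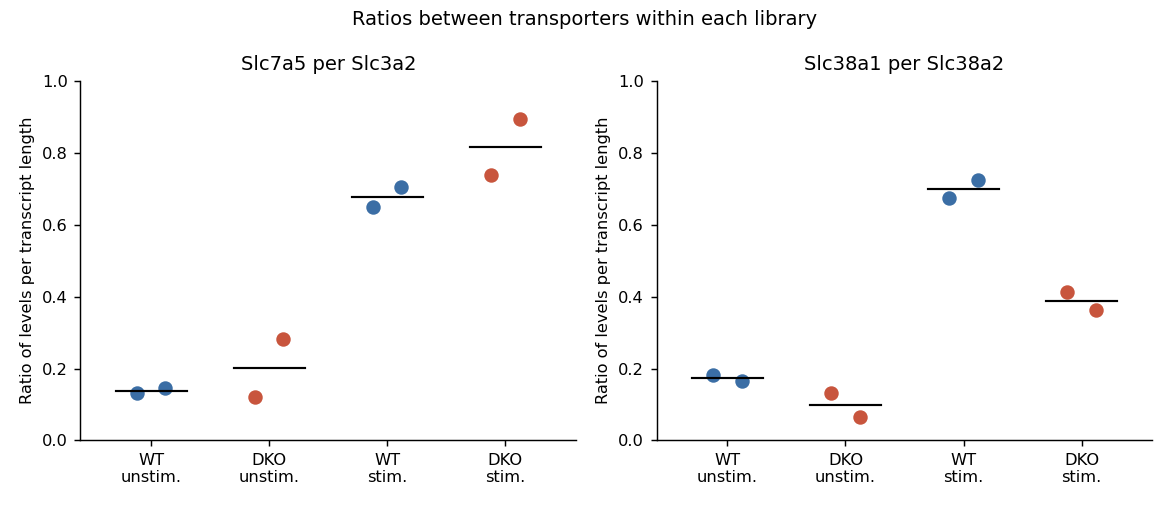
Ratio of levels per transcript length (vertical axes, from 0 to 1) of Slc7a5 to Slc3a2 and of Slc38a1 to Slc38a2 in each library, with bars for group means. Both ratios are higher in stimulated libraries, and Slc38a1 to Slc38a2 is lower in libraries labelled DKO in each state.

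In GRCm38.p6 coordinates of RefSeq the members lie on 6 chromosomes. Slc38a1 (chr15:96571418-96643438) and Slc38a2 (chr15:96687392-96699728) are neighbours on the minus strand, and their levels moved in opposite directions with stimulation of cells labelled DKO. Slc7a6 (chr8:106168219-106198714, plus strand) and Slc7a5 (chr8:121881146-121907686, minus strand) share a chromosome. The others are Slc3a2 (chr19:8706882-8723369, minus strand), Slc1a5 (chr7:16781334-16798274, plus strand), Slc7a1 (chr5:148327410-148399904, minus strand) and Slc7a11 (chr3:50364936-50499087, minus strand). No exonic base of a member was shared with another gene of GENCODE vM1.

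Promoter windows from RefSeq (GRCm38.p6) were available for 5 members, in 7 windows. The 100 bases before the start site are shown for the 2 genes that fell on stimulation under both genotype labels and for Slc7a11, the one member window with matches to the ATF4 element. Capitals mark matches, on either strand, to TGATGNAA, the composite element bound by ATF4, or to TGACNNNGC, the core of the antioxidant element bound by NRF2.
Slc7a11, chr3:50443614-50443713, minus strand: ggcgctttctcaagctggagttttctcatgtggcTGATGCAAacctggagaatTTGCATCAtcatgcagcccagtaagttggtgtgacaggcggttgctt
Slc38a2, chr15:96699729-96699828, minus strand: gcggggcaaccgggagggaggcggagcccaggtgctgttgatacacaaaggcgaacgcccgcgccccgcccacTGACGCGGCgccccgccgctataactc
Slc3a2, chr19:8713898-8713997, minus strand: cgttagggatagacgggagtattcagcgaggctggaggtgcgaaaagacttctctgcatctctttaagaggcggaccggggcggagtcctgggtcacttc

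The search covered 250 bases before each start site. Slc7a11 held TGATGNAA from -66 on the coding strand and from -47 on the opposite strand, the only member window with it, beside 3.45% of 32851 windows of all genes. TGACNNNGC was found in 3 member windows, at -27 in Slc38a2, at -68 in Slc7a6 and at -11 in Slc7a1, beside 10.2% of all windows. The E-box CACGTG, to which MYC binds, was in none of the 7, beside 6.02%. The NFAT core GGAAA was in 2 member windows, of Slc7a11 and Slc7a1, beside 55.6%. The 3 longer motifs did not overlap one another in these windows, and a match is a description of the letters only.

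Of 16 transcription factors known to act on such genes, 2 were called higher and 1 lower in unstimulated libraries labelled DKO, where 1.38% and 3.35% of all genes tested were called. DESeq2 also called 2 higher and 1 lower, whereas edgeR called 1 higher, Bach2, and 0 lower. Over all genes tested DESeq2 called 521 higher and 817 lower, and edgeR 131 and 353. Nfe2l2, which encodes NRF2, counted 660.4 and 759 in WT libraries and 1206 and 1238 in those labelled DKO (log2 fold change 0.79 ± 0.19, SE; adjusted p = 0.0451). Bach2, a repressor in T cells, counted 2514 and 2477 against 3691 and 5361 (0.83 ± 0.20, adjusted p = 0.0454). Nfatc1, a Ca2+-dependent activator and its own target, counted 2499 and 2379.8 against 1418 and 1388 (-0.80 ± 0.20, adjusted p = 0.0480). Without DKO unstimulated replicate 1 the calls of Nfe2l2 (adjusted p = 0.0529) and Nfatc1 (0.0601) did not hold, and without replicate 2 those of Bach2 (0.0522) and Nfatc1 (0.0524) did not. None of the 3 passed without WT unstimulated replicate 3 (adjusted p 0.342 to 0.396) or replicate 4 (0.130 to 0.181). Stimulation raised Myc from 1128 and 1077 to 4677 and 5418 in WT libraries (2.19 ± 0.25, adjusted p = 7.32e-04), and from 1573 and 892 to 4709.6 and 4725 in libraries labelled DKO (1.99 ± 0.25, adjusted p = 7.67e-04). Atf4, named after its values were seen, went from 3722 and 3489 to 1399.8 and 1595 in WT libraries (-1.27 ± 0.24, adjusted p = 0.00626), and from 1858 and 3240.0 to 1749 and 1921 in libraries labelled DKO (-0.42 ± 0.24, adjusted p = 0.230).

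Several enzyme genes that use the transported amino acids were lower in unstimulated libraries labelled DKO. Over all 133 tested genes of 8 related lists, chosen by symbol, 10 were called lower and 2 higher, beside 3.35% and 1.38% of all genes tested. Over all 15419 genes tested edgeR called 353 lower and 131 higher, DESeq2 817 and 521, and the unadjusted rule gave 1705 and 1338. Of the 133 genes edgeR called 8 lower and 1 higher, and DESeq2 17 and 4. There were 32 and 8 at an unadjusted p under 0.05 and over 1.5-fold. As for the genes at large, these calls rested on both unstimulated WT libraries, and 0 of the 133 genes were called in either direction without WT unstimulated replicate 3 or without replicate 4. Of 14 tested genes of glutamine and glutamate metabolism 2 were called lower and 0 higher, with a list median of -0.70. Asns, the asparagine synthetase gene, counted 173 and 204 in WT libraries and 62.9 and 29.4 in those labelled DKO, without overlap (log2 fold change -2.10 ± 0.38, SE; adjusted p = 0.0189). Psat1, of serine synthesis, counted 1062 and 923 against 395 and 341 (-1.43 ± 0.19, adjusted p = 0.00593). Both calls held without either unstimulated library labelled DKO, but not without WT unstimulated replicate 3 (log2 fold change -2.22 and -1.33, adjusted p = 0.196 and 0.149) or replicate 4 (-1.98 and -1.53, adjusted p = 0.112 and 0.0563). Of 13 genes of cystine and glutathione metabolism 2 were lower and 0 higher, with a median of -0.71. Txn1, the thioredoxin gene, counted 1644 and 1356 against 645 and 508 (-1.38 ± 0.24, adjusted p = 0.0161), and Prdx1, a peroxiredoxin gene, counted 1517 and 1325 against 809.5 and 817 (-0.80 ± 0.19, adjusted p = 0.0451). Prdx1 did not pass without DKO unstimulated replicate 1 (adjusted p = 0.0574).

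Of 14 genes of arginine and polyamine metabolism 2 were lower and 0 higher in unstimulated libraries labelled DKO. Odc1, the ornithine decarboxylase gene, counted 10031 and 8933 in WT libraries and 2814 and 5195 in those labelled DKO (log2 fold change -1.31 ± 0.26, SE; adjusted p = 0.0234). Ass1, of arginine synthesis, counted 962 and 677 against 381 and 366 (-1.11 ± 0.23, adjusted p = 0.0271). Of 13 genes of branched-chain amino acid catabolism 1 was lower, Bcat1, the cytosolic transaminase of leucine, isoleucine and valine, with 302 and 306 against 74.5 and 108 (-1.75 ± 0.32, adjusted p = 0.0189). Of 34 genes that sense amino acids upstream of mTORC1 1 was lower, Rragd, a Rag GTPase gene, with 841 and 801 against 169 and 295 (-1.87 ± 0.27, adjusted p = 0.00880). Of 11 lysosomal transporters 1 was lower, Slc36a4, with 649 and 648 against 240.1 and 254 (-1.39 ± 0.22, adjusted p = 0.0117). These 5 calls held without either unstimulated library labelled DKO, but none did without WT unstimulated replicate 3 (adjusted p 0.161 to 0.331) or replicate 4 (0.0731 to 0.106), with log2 fold changes of -1.91 to -0.86 in those fits. Without DKO unstimulated replicate 1 the list medians were -0.74 for glutamine, -0.79 for cystine and glutathione and 0.01 for arginine and polyamines. They were -0.07 for branched-chain catabolism, 0.12 for sensing and -0.17 for the lysosomal list. Without DKO unstimulated replicate 2 the medians of these lists, in the same order, were -0.60, -0.64, -0.52, -0.22, -0.24 and 0.04.

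Of 43 other plasma membrane amino acid transporters 18 were expressed highly enough to test, and by limma 0 were called in unstimulated cells, with a median of 0.21. At an unadjusted p under 0.05 and over 1.5-fold 3 were higher and 1 lower, and edgeR called 0 and DESeq2 1 higher. Over all genes tested those settings called 1338, 131 and 521 higher, and 1705 were lower at an unadjusted p. Slc1a3, a glutamate carrier, counted 119.5 in DKO unstimulated replicate 1, 17.4 in replicate 2 and 2.95 or less in the other 6 libraries, and Slc7a8, the LAT2 light chain, counted 97.5 and 13.4 there against 6.47 or less. Both were thus high in the library with the highest myeloid markers, where Mrc1 counted 2702 against 14.0 and 5.91 in unstimulated WT libraries and 0 in all 4 stimulated ones. Slc1a3 was called higher (adjusted p = 0.0372) without replicate 2. In stimulated cells 0 genes of these 8 related lists were called between genotype labels by limma in either direction. At an unadjusted p under 0.05 and over 1.5-fold 10 were higher and 8 lower, edgeR called 0, and DESeq2 called 3 higher, Bach2, Mxd1 and Sesn3. Over all genes tested those settings called 864 higher and 1072 lower, 1 and 0, and 251 and 299.

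**Figure D5:**
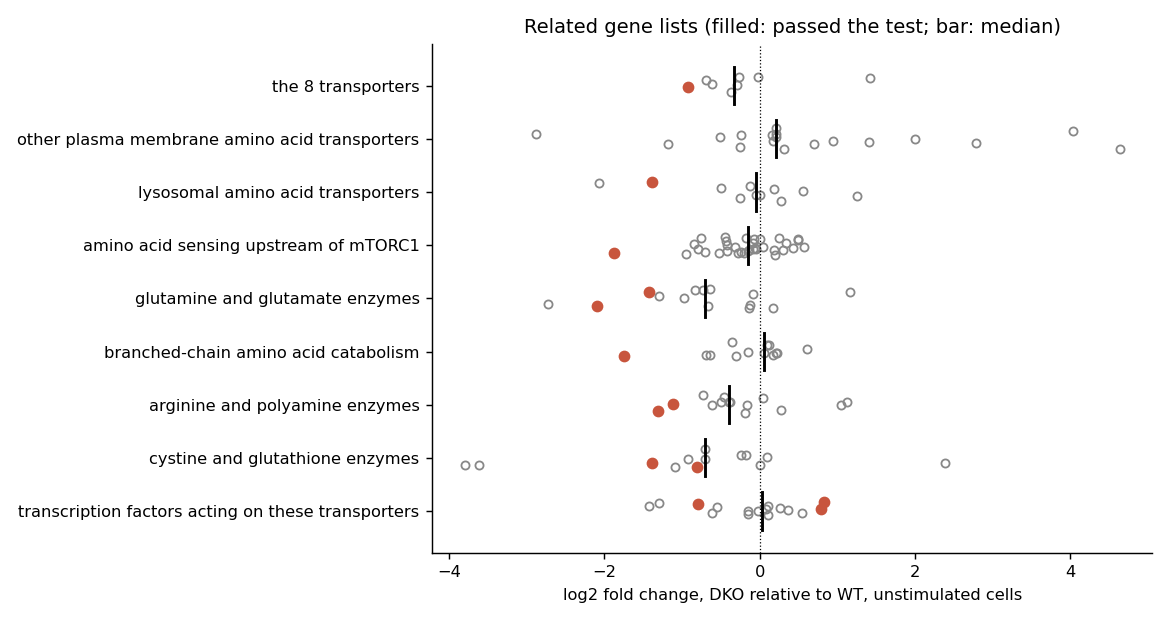
Log2 fold change between genotype labels in unstimulated cells (horizontal axis) of the tested genes of each related list, with filled points for genes that passed the test and bars for list medians. Among the 8 transporters 1 gene is filled, and the lowest medians, -0.70 and -0.71, are those of the glutamine and glutathione lists.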

How the data were processed

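The authors deposited 1 table of normalized counts per gene (unit: signal) for the 8 libraries, counts divided by a factor per library. The study's methods name Bowtie, NCBIM37, HTSeq and DESeq2, whereas the submitters' processing notes name bcl2fastq 1.8.4, STAR 2.7, DESeq2 and mm10; the methods and labels also name different library kits. Of 52459 symbols, 28801 matched GENCODE vM1 (NCBIM37) and 35095 RefSeq GRCm38.p6, so GRCm38.p6 coordinates are given; transcript lengths are those of the longest GENCODE vM1 coding transcript.

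Values were whole multiples of 1 read (100% in every library), which gave reads back. limma 3.58.1 with trend (R 4.3.3) was fitted to log2(value + 1) of genes with a mean of at least 10, with all 8 libraries in 1 model of 4 groups, since the deposited values are not counts. edgeR 4.0.16 (quasi-likelihood) and DESeq2 1.42.0 were run on the recovered reads as alternatives. Genes were called at a 2-sided Benjamini-Hochberg adjusted p under 0.05 and over 1.5-fold. Fold changes understate those of low genes. The scripts were tested on simulated data. The members and lists were chosen with earlier results of these data known. Named genes are the 8 members, the targeted genes, up to 3 called genes of largest change per related list and contrast, and the 3 genes of most similar pattern per member. Effects of leaving out unstimulated libraries on list genes were computed after seeing the data.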

Additional observations from a re-analysis of the deposited data

How the results depend on the processing

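Over 403 log2 fold changes of members under other settings, 374 kept their direction and side of the threshold, 15 passed newly, 6 no longer passed and 8 changed sign. Sign changes were those of Slc38a2 between genotypes in unstimulated cells (0.10 with equal totals, 0.14 with equal upper quartiles, 0.11 by edgeR, 0.14 by DESeq2), of Slc7a1 on stimulation of WT cells (0.000587 with equal totals), and of Slc7a1 on stimulation of DKO cells (-0.0819 with equal upper quartiles, -0.0812 by edgeR, -0.113 by DESeq2).

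Members called lower between genotypes in unstimulated cells numbered 1, and 0 with 4 libraries, 0 at over 2-fold and 2 at an unadjusted p. In stimulated cells 1 was lower at an unadjusted p, and 1 interaction was higher. Members called higher on stimulation of WT cells numbered 5 with equal totals, 3 with quantile normalization, 1 by DESeq2, 2 with 4 libraries and 1 at an unadjusted p, in place of 0. Over all genes tested the calls higher in these settings were 4258, 1863, 1671, 2319 and 2565, in place of 1580. In DKO cells the 2 called higher became 1 when every gene with a value above 0 was tested, 0 with 4 libraries, 0 at over 2-fold and 3 each with equal totals, by DESeq2 and at an unadjusted p, and the 2 called lower became 1 with equal totals and 1 with 4 libraries. Over all genes the calls higher in these settings were 1586, 880, 1461, 3791, 2023 and 2821, in place of 1997. Those lower were 1077 with equal totals and 872 with 4 libraries, in place of 1855.

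With 1 library left out, the members called changed between genotypes in unstimulated cells, for the interaction and for stimulation under both labels. The log2 fold changes that changed sign ranged from -1.04 to 0.50 (Slc7a5), -0.68 to 0.64 (Slc38a2) and -0.667 to 0.0865 (Slc7a6) between genotypes in unstimulated cells, from -0.0574 to 0.0320 (Slc7a5) in stimulated cells, from -0.52 to 1.03 (Slc7a5), -0.0849 to 1.24 (Slc38a2), -0.0129 to 1.06 (Slc7a1) and -1.42 to 0.46 (Slc7a11) for the interaction, and from -0.53 to 0.54 (Slc7a1) for stimulation of DKO cells. Where a library is left out of a group of 2, the remaining one is assumed to vary like the other groups. The cause was not tested.

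Replicate numbers 1 and 2 are shared by stimulated WT and DKO libraries and by unstimulated and stimulated DKO libraries. Deviations of same-numbered libraries correlated at 0.167 and 0.257 across genes. With 2 libraries per group the deviations mirror each other, so each correlation is 1 value. Whether the numbers pair the libraries is not settled by it. With the replicate block, 4 members were called higher and 2 lower on stimulation of DKO cells, beside 1870 and 2224 of all 15419 genes tested. With the same 4 libraries and no block, 0 members were higher and 1 lower, beside 880 and 872 genes. Slc7a5 (1.01, adjusted p = 0.0115) and Slc7a11 (1.69, adjusted p = 0.0119) were among the 4 members called higher with the block. Between genotypes in stimulated cells 0 members were called in either direction with the block, beside 191 genes higher and 202 lower. Without the block the same 4 libraries gave 1 gene higher and 0 lower.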

Other observations

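Genes with the pattern most like that of a member were sought over the 8 libraries among 9146 genes with a mean of at least 100, by the root mean square difference of log2(value + 1) after centring each gene. For Slc38a1 these were Metap2 (0.0865), Abracl (0.0958) and Degs1 (0.101), and for Slc38a2 they were Mgea5 (0.114), Cnst (0.114) and Csrnp2 (0.127). Slc3a2 was most like Htatsf1 (0.148), Hspa5 (0.164), which encodes the ER chaperone BiP, and Ddx3x (0.165). Slc7a5 was most like Cyp51 (0.195), a gene of sterol synthesis, Cdc34 (0.202) and Pmepa1 (0.216). Slc7a1 was most like Ppp2ca (0.0793), Yeats4 (0.102) and Orai1 (0.108), the last of which encodes the pore subunit of the CRAC channel. Slc1a5 was most like Tvp23b (0.101), Tbc1d13 (0.112) and Fam126a (0.112), and Slc7a6 was most like Tuba4a (0.0512), Rpl26 (0.0824) and Trir (0.0975). Slc7a11 had no close match, the nearest being Gm12185 (0.548), 9330151L19Rik (0.690) and 2700097O09Rik (0.695). The libraries share group and lane, so these are descriptions only.

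Genes of the related lists also changed with stimulation, which was bound to the lane. Srm, which encodes spermidine synthase, rose from 204 and 162 to 950.1 and 913 in WT libraries and from 128 and 93.5 to 970.4 and 703 in libraries labelled DKO, by 2.35 ± 0.26 and 2.91 ± 0.26 on the log2 scale (SE; limma, adjusted p = 7.32e-04 and 2.39e-04). Odc1 fell in both, with log2 fold changes of -1.81 ± 0.26 in WT cells and -0.92 ± 0.26 in cells labelled DKO. Cad, of pyrimidine synthesis from glutamine, rose by 1.62 ± 0.30 and 2.06 ± 0.30, whereas Glul, the glutamine synthetase gene, fell, with values of -1.66 ± 0.28 and -1.11 ± 0.28. Bcat1 rose by 1.67 ± 0.32 and 2.47 ± 0.32, and Bcat2, the mitochondrial form, was -1.27 ± 0.37 in WT cells (adjusted p = 0.0322) and -0.89 ± 0.37 in cells labelled DKO (adjusted p = 0.103). Among transporters outside the 8, Slc43a2, a carrier of neutral amino acids, fell from 1147 and 1012 to 487 and 591 in WT libraries and from 1024 and 1449 to 333 and 403 in libraries labelled DKO. Slc6a9, the glycine carrier gene, counted 0 in both unstimulated WT libraries and 12.5 and 17.5 after stimulation, and 0 and 2.67 against 23.8 and 25.3 in libraries labelled DKO.

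The Rag GTPase gene Rragd, lower in unstimulated libraries labelled DKO, rose on stimulation by 0.95 ± 0.27 in WT cells and 2.19 ± 0.27 in cells labelled DKO, and the interaction of 1.24 ± 0.38 did not pass (adjusted p = 0.556). Sesn1 and Flcn, which also act upstream of mTORC1, fell instead. Sesn1 went from 2237 and 2143 to 449.7 and 662 in WT libraries and from 1567 and 1955 to 666 and 945 in libraries labelled DKO, and the log2 fold changes of Flcn were -1.86 ± 0.33 and -1.66 ± 0.33. Chac1, a glutathione-degrading enzyme induced through ATF4, counted 46.4 and 48.8 in unstimulated WT libraries, 1.05 and 6.68 in those labelled DKO, 8.57 and 0 in stimulated WT libraries and 23.0 and 34.6 in stimulated libraries labelled DKO. Libraries labelled DKO thus lay below WT libraries before and above them after stimulation. The lower group in each state rested on few reads. These were 1 and 5 in unstimulated libraries labelled DKO, and 11 and 0 in stimulated WT libraries. The interaction of 6.85 ± 1.52 on the log2 scale did not pass by limma (adjusted p = 0.506) and was called by DESeq2.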
